A study of Mus musculus with 6 samples.

Results

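The genes described here encode the proteins of the cytosolic ribosome. They were chosen by symbol: names of the form Rpl or Rps with a number, plus Rpsa, Rplp0, Rplp1 and Rplp2, where the deposited files list a protein-coding transcript for the gene. The rule found 82 of the 26699 genes in the files, 50 for the large subunit and 32 for the small subunit. Another 5 rows fitted the name but not the transcript type, and 212 rows named as pseudogenes (symbols ending in -ps and a number) fell outside the rule. The rule used no measured value.

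The libraries came from mouse bone marrow macrophages cultured towards osteoclasts, the bone-resorbing cells that form by fusion. Control cells were Slc11a2flox/flox. The conditional knockout (cKO) cells carried the same floxed alleles with LysmCre, in which the lysozyme M promoter drives Cre recombinase in the myeloid lineage; Slc11a2 encodes DMT1, an importer of ferrous iron. Cells of all groups came from mice aged 8 weeks, were expanded with 10 ng/mL of the growth factor M-CSF and then received 30 ng/mL M-CSF with 50 ng/mL RANKL, the cytokine that drives them into the osteoclast lineage, over 48 hours. Since no control group with Cre alone is labelled, what Cre does by itself and what Slc11a2 deletion does cannot be told apart. Each genotype had 3 libraries, and nothing in the sources used here says whether each came from its own mouse or culture, so each p-value is relative to the variation among these 3 libraries, part of which may be technical.

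A ribosome holds a single copy of nearly every one of these proteins, and cells make them in matched amounts. The small subunit reads the mRNA and the large subunit joins amino acids; the acidic stalk proteins Rplp1 and Rplp2 recruit the translation factors to the large subunit. Their mRNAs are short, abundant and stable, and they begin with a run of pyrimidines, the 5′ terminal oligopyrimidine (TOP) tract, through which mTORC1 and LARP1 control their translation. Mammalian genomes also hold very many processed pseudogenes of ribosomal protein mRNAs, which are spliced copies put back into the genome by reverse transcription.

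Values per library are given below in the order of replicates 1 to 3, in CPM (counts divided by the TMM-normalised library total and scaled up by a constant). As a check of the labels, Slc11a2 measured 118, 110 and 118 CPM in the controls against 78.3, 82.8 and 87.4 CPM in cKO, a log2 fold change of −0.48 (adjusted p = 0.00219, edgeR's quasi-likelihood test with Benjamini-Hochberg adjustment over 16843 genes). Lyz2, the locus of lysozyme M, differed by −1.14 on the log2 scale (adjusted p = 9.4e-06 in the same test). Libraries held 49720701 to 57797282 counts, which makes a single read 0.0173 to 0.0201 CPM. Of the marker lists for other cell types, 4 of 8 tested neutrophil genes were higher in cKO, and the summed level of the 10 listed genes was 200 to 232 CPM in the controls and 268 to 302 CPM in cKO, with Camp, Elane, Mpo and Retnlg under 1 CPM. Markers of the labelled cells were abundant: 10 osteoclast genes summed to 11620 to 15078 CPM in the controls and 8411 to 11981 CPM in cKO, with a median log2 fold change of −0.39 and 0 calls (3 lower at an unadjusted p below 0.05 in edgeR's test, 0 calls by DESeq2). The 7 macrophage markers, Lyz2 among them, summed to 22485 to 25850 CPM in the controls and 14070 to 14470 CPM in cKO, and 1 of them, Lyz2, was called lower. Their median log2 fold change was only −0.05, with 4 of the 7 negative. At an unadjusted p below 0.05 in edgeR's test 1 of them was higher, and DESeq2 called 1 higher and 1 lower. Of 3 tested genes each, B cell markers had 1 higher (sums of 27.0 to 29.5 CPM in the controls and 34.4 to 42.6 CPM in cKO) and megakaryocyte markers had 1 lower (43.0 to 57.1 CPM and 31.1 to 38.7 CPM). Stromal markers had 0 of 7 called by edgeR, with 4 higher at an unadjusted p below 0.05 and 2 higher by DESeq2, and sums of 3421 to 3993 CPM in the controls and 3225 to 5170 CPM in cKO. The part of these shifts in the results below was not tested.

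Ribosomal protein mRNAs were lower in the cKO libraries as a group, by a small amount. Of the 81 members that passed the filter on low counts, 76 had a negative log2 fold change (cKO over control), against 49.6% of all 16843 genes tested. Their median log2 fold change was −0.16, beside 0.00 for all genes tested, and it was alike in the large subunit (−0.16 over 49 members) and the small subunit (−0.17 over 32 members). In bulk RNA, fewer cells of a type and less RNA per cell cannot be told apart.

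At an adjusted p below 0.05 in edgeR's test, 6 members were lower in cKO and 0 were higher, or 7.41% of the members tested. The same call was made for 1.06% of all genes tested in the lower direction and 1.36% in the higher direction. At an unadjusted p below 0.05 there were 39 lower and 0 higher, where 8.79% of all genes tested were lower and 8.38% higher. In 35 members every cKO library lay below every control library, and the reverse held for 0 members. Over all genes tested these shares were 11.4% and 11.1%. Genes with short mRNAs also had raised shares in the lower direction, as given below. DESeq2 called 12 members (2.64% of all genes were called lower) and limma-voom with sample weights called 11 (2.1% of all genes), all of them lower.

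**Figure D1:**
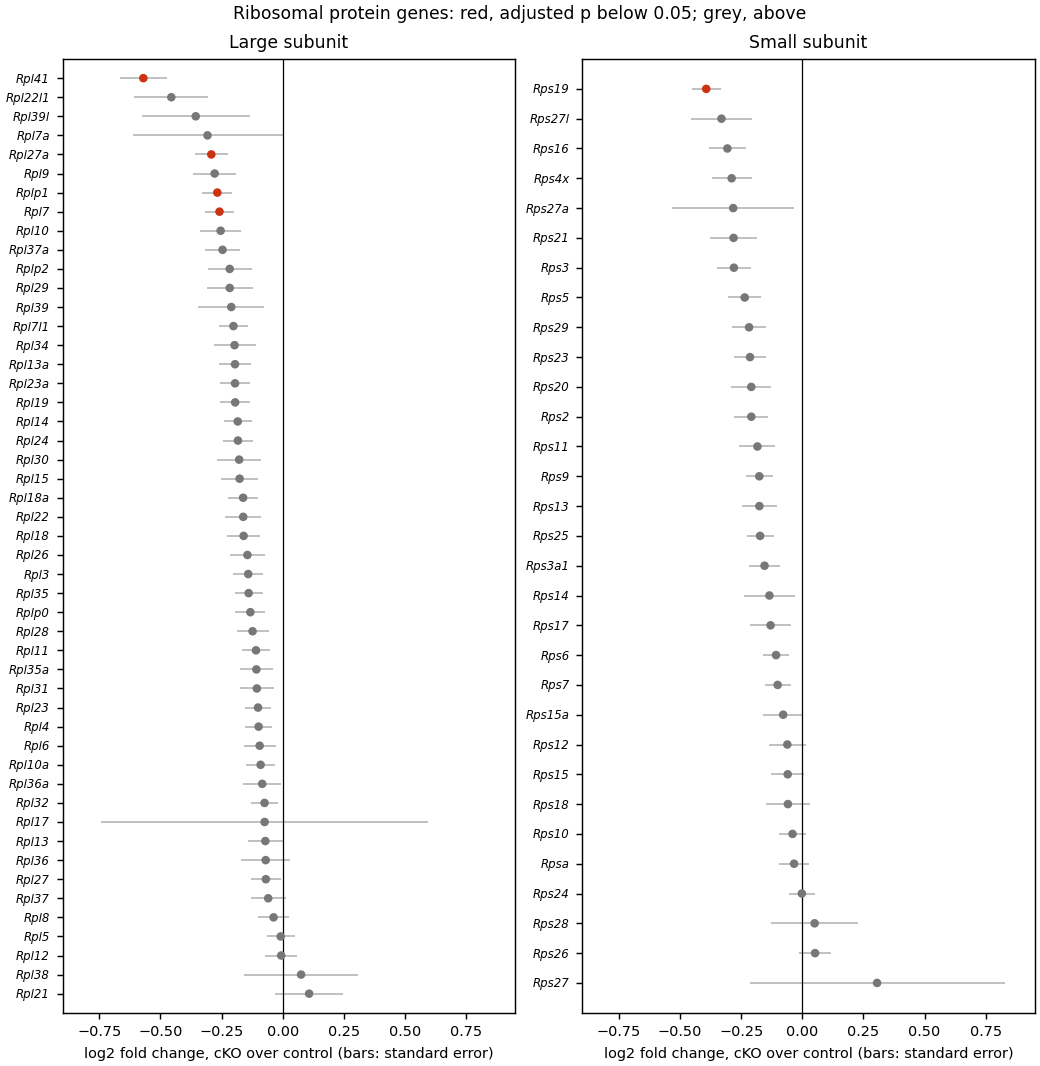
Log2 fold change (cKO over control) of the tested members, with standard errors, for the large subunit (left) and the small subunit (right); red points passed an adjusted p below 0.05 in edgeR's test. The red points are all negative, and the widest bars include those of Rpl17, Rps27 and Rpl7a, which have sequence copies.

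The shift was not even over the libraries. Members made up 1.53%, 1.47% and 1.46% of all counts in the controls, beside 1.32%, 1.45% and 1.34% in the cKO libraries. The share in cKO replicate 2 lay just under the lowest control, while cKO replicates 1 and 3 lay clearly lower. The same order appeared member by member: the median deviation from the control mean, in log2 CPM, was 0.06, −0.02 and −0.03 in the controls, beside −0.21, −0.06 and −0.19 in cKO.

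Control replicate 1 was the highest library for 54 of 81 members, and cKO replicate 1 or 3 was the lowest for 38 and 35 of them. No member had its lowest value in cKO replicate 2. Leaving out cKO replicate 2 raised the number of called members from 6 to 12 (0.641% of all genes tested were then called lower) and moved the median to −0.21. Leaving out cKO replicate 1 left 1 called member (beside 0.116% of all genes) and a median of −0.12. Without control replicate 1 there were 2 called members, without control replicate 2 there were 2 and without control replicate 3 there were 3, beside 0.149%, 0.351% and 0.213% of all genes. Without cKO replicate 3 the number was 4, beside 1.79%.

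Rpl41 had the largest fall among the members. It encodes a very small, strongly basic protein of the large subunit. The gene lies on chromosome 10 (chr10:128548114-128549162, minus strand, mm10), and its whole coding sequence is short enough to print. It is shown because a copy of the gene on chromosome 14, Gm10076 (chr14:105681828-105682211, plus strand), holds the same 75 bases with 0 mismatches (GENCODE release M21 transcripts, stop codon left out):
Rpl41: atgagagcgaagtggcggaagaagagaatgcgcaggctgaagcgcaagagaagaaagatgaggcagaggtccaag

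Rpl41 measured 183, 178 and 158 CPM in the controls but 134, 112 and 103 CPM in cKO. All cKO libraries lay below all controls. This amounts to −0.57 ± 0.10 (SE) on the log2 scale (adjusted p = 0.0164, edgeR). The Gm10076 row had its higher values in cKO, with 6.84, 7.74 and 14.6 CPM in the controls and 28.5, 45.3 and 35.6 CPM in cKO, without overlap but without passing the test (log2 fold change 1.9, adjusted p = 0.0942, edgeR). With the copy added to Rpl41, the sums were 190, 186 and 173 CPM in the controls and 163, 157 and 139 CPM in cKO, still without overlap. The log2 fold change of the sum was −0.26, and its adjusted p in edgeR's test was 0.0738, so the call was lost.

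Rps19, a small-subunit protein needed for processing of the small-subunit rRNA and the gene most often mutated in Diamond-Blackfan anaemia, lies on chromosome 7 (chr7:24884371-24889806, plus strand). Its level was 78.1, 79.5 and 74.1 CPM in the controls and 57.9, 58.3 and 60.1 CPM in cKO. The groups were far apart beside the spread within each, and cKO replicate 2 was as low as the others. The difference of −0.39 ± 0.06 (SE) on the log2 scale had the smallest adjusted p among the members, 0.00565 in edgeR's test. With the copy rows added it was −0.35 (adjusted p = 0.036, edgeR).

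Rps19 stayed called in 5 of the 6 fits that left out a library, with a highest adjusted p of 0.0627 in edgeR's test, and Rpl41 stayed called in 3.

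A further 3 called members belong to the large subunit. Rpl27a, on chromosome 7 (chr7:109519147-109522367, plus strand), was at 170, 166 and 158 CPM in the controls and 123, 135 and 146 CPM in cKO, a log2 fold change of −0.29 (adjusted p = 0.0424, edgeR). Rplp1, a stalk protein encoded on chromosome 9 (chr9:61913284-61914542, minus strand), was at 201, 184 and 190 CPM in the controls and 164, 165 and 149 CPM in cKO, a log2 fold change of −0.27 (adjusted p = 0.0425, edgeR). Rpl7, on chromosome 1 (chr1:16101295-16104662, minus strand), was at 337, 336 and 332 CPM in the controls and 271, 298 and 272 CPM in cKO, a log2 fold change of −0.26 (adjusted p = 0.0388, edgeR). In each of these 3 members the groups did not overlap. Leaving out a library ended the call in 5 of 6 fits for Rpl27a and Rpl7 and in all 6 for Rplp1. Those fits called 0.116% to 1.79% of all genes lower, beside 1.06% with all libraries.

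**Figure D2:**
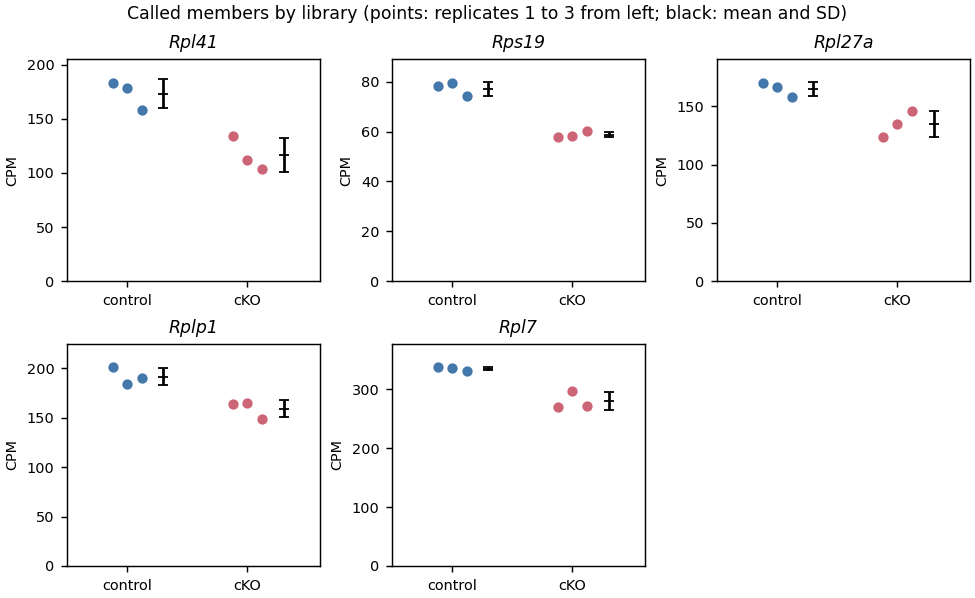
CPM in each library for 5 called members, with control replicates 1 to 3 and cKO replicates 1 to 3 as points from left to right and the mean and SD of each group in black; each vertical axis starts at 0. In every panel the lowest control point lies above the highest cKO point, and the gap is widest relative to the spread for Rps19.

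Rpl27a also has a copy with the same coding sequence. Gm7536, a processed pseudogene on chromosome 3 (chr3:24333068-24333511, plus strand), is identical to Rpl27a over all 444 coding bases, of which the first 78 are shown:
Rpl27a: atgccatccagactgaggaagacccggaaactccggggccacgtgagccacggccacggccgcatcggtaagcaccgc

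Gm7536 was at 25.8, 12.7 and 20.1 CPM in the controls and 43.6, 50.3 and 21.4 CPM in cKO, and its difference did not pass the test (log2 fold change 0.98, adjusted p = 0.375, edgeR). Rpl27a with its 9 copy rows came to 200, 183 and 183 CPM in the controls and 175, 194 and 172 CPM in cKO. These sums overlapped, with a log2 fold change of −0.07 (adjusted p = 0.645, edgeR). The copies took 1.17% of the sum for Rplp1, 3.15% for Rpl7 and 16.6% for Rps19, and the calls of these 3 members were kept. Rps16, named here after its values were seen, was just outside the call on its own row (adjusted p = 0.0545) and inside it with copies (−0.33, adjusted p = 0.0426, edgeR), which made 5 called members in that fit, where 1.23% of all genes tested were called lower.

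Copies were widespread among the members. Searching the principal mRNA of each member against GENCODE release M21 found 546 other rows of the files that matched at no less than 95% identity over no fewer than 200 bases and that were pseudogenes or had symbols starting with Rpl, Rps or Gm, without overlapping the member. Of these, 532 were annotated as pseudogenes, and 73 of the 82 members had such a row. The median share of the sum of member and copies that was counted on the copy rows was 8.88%. For Rpl7a, Rpl17, Rps27 and Rpl21 more was counted on the copies than on the member, and the share was highest for Rpl21, at 89.9%. Of the 359 copy rows that could be tested, 0 were higher in cKO and 1, Rps7-ps3, was lower (log2 fold change −0.27, adjusted p = 0.0458, edgeR). Over all genes tested 1.06% were called lower.

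For a few members the member row and a copy row had opposite levels from library to library, within a genotype; how reads were assigned between them was not tested. Rpl17, a large-subunit protein near the exit of the peptide tunnel, was at 31.6, 86.4 and 33.1 CPM in the controls and 30.4, 32.0 and 81.3 CPM in cKO. Its pseudogene Rpl17-ps10 was at 101, 57.4 and 97.4 CPM in the controls and 102, 107 and 60.5 CPM in cKO. The libraries in which Rpl17 was high, control replicate 2 and cKO replicate 3, are those in which the pseudogene was low. Together with its 22 copy rows Rpl17 varied by 2.73% (coefficient of variation over the 3 controls), against 62.0% alone, and the log2 fold change of the sum was −0.01.

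Rpl7a had the same pattern. It was at 163, 228 and 123 CPM in the controls and 105, 146 and 164 CPM in cKO, an apparent log2 fold change of −0.31 that did not pass the test (adjusted p = 0.69, edgeR). Rpl7a-ps11, on the X chromosome, was at 107, 62.1 and 106 CPM in the controls and 104, 97.3 and 86.9 CPM in cKO, lowest where Rpl7a was highest. Over 798 coding bases the pseudogene has 2 mismatches, and the stretch around 1 of them (bases 708 to 785 of the coding sequence) is shown with the differing base in capitals:
Rpl7a: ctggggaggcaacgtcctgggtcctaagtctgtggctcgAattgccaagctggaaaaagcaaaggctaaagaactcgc
Rpl7a-ps11: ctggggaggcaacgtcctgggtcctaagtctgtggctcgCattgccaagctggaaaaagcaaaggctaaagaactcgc

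Another Rpl7a copy, Gm8226, had counts within 0.764% to 1.74% of those of Rpl7a-ps11 in every library. The sources used here do not say whether a read could be counted for more than 1 row. With all 34 copy rows added, Rpl7a was at 467, 416 and 432 CPM in the controls and 422, 418 and 416 CPM in cKO.

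Rps27a, a small-subunit protein made as a fusion with ubiquitin, was at 125, 78.7 and 72.2 CPM in the controls and 73.9, 85.5 and 67.3 CPM in cKO. Its pseudogene Rps27a-ps2 was at 13.7, 43.1 and 44.1 CPM in the controls and 21.3, 29.0 and 35.1 CPM in cKO, lowest in control replicate 1, where Rps27a stood highest. In cKO the opposite levels held only in part. There the pseudogene was lowest in replicate 1, while Rps27a stood highest in replicate 2. A single mismatch over 467 aligned bases separates the pair, shown in capitals within bases 336 to 413 of the coding sequence:
Rps27a: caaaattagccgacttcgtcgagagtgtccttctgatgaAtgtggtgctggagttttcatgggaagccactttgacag
Rps27a-ps2: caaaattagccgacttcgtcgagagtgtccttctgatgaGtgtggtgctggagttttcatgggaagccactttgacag

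Rps27 had the highest log2 fold change among the members and changed sign once its copies were counted. Alone it was at 23.7, 10.4 and 29.0 CPM in the controls and 16.4, 36.8 and 24.8 CPM in cKO (log2 fold change 0.31 ± 0.52 SE, adjusted p = 0.825, edgeR). Its retrogene Rps27rt, an intronless copy that keeps the coding frame, was at 36.1, 45.0 and 26.5 CPM in the controls and 32.5, 14.5 and 22.3 CPM in cKO. The coding sequences are identical over all 252 bases, of which the first 78 are:
Rps27: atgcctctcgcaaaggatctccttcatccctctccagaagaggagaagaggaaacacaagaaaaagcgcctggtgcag

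The 3 copy rows of Rps27 brought the sums to 59.9, 55.6 and 55.8 CPM in the controls and 49.0, 51.5 and 47.2 CPM in cKO. The sums did not overlap, with a log2 fold change of −0.21 (adjusted p = 0.109, edgeR). Adding copies likewise took Rpl21 from 0.11 to −0.02, Rpl38 from 0.08 to −0.06 and Rps28 from 0.05 to −0.05, none of which passed the test in either form. Over all 81 members, 6 had a coefficient of variation above 20% in the controls on the member row alone, and 0 did with copies added; in cKO these numbers were 6 and 3. Above 10% there were 10 members alone and 2 with copies in the controls, and 23 and 17 in cKO. The members' share of all counts with copies included was 1.77%, 1.68% and 1.69% in the controls and 1.55%, 1.69% and 1.54% in cKO, so cKO replicate 2 then lay inside the control range. The members' median log2 fold change with copies was −0.14, with 79 of 81 negative.

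**Figure D3:**
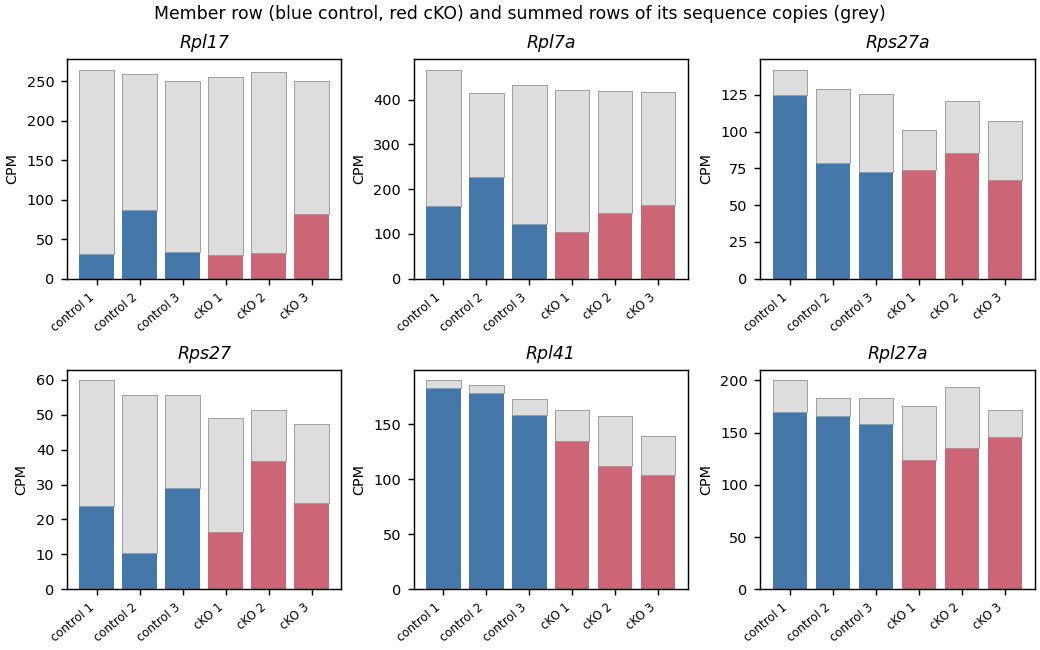
CPM of the member row (blue in controls, red in cKO) and, stacked in grey, the summed CPM of its copy rows in each of the 6 libraries, for 6 members; axes start at 0. The whole bars of Rpl17 and Rpl7a are nearly level while the coloured part changes, whereas the grey part of Rpl41 is taller in all 3 cKO libraries.

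Several members with known special roles had no call in edgeR's test. Rpl5 and Rpl11, which with the small rRNA 5S bind MDM2 when ribosome assembly fails, had log2 fold changes of −0.01 and −0.11. Rps6, the S6 kinase substrate, was at 407, 394 and 389 CPM in the controls and 359, 376 and 370 CPM in cKO. Its groups did not overlap, but the log2 fold change of −0.11 did not pass the test (adjusted p = 0.337, edgeR).

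Rps14, which is lost in the 5q- syndrome, stood at −0.13 (adjusted p = 0.574, edgeR), and Rpl3, at the peptidyl transferase centre, −0.14. Rps4x and Rpl10, both X-linked, had log2 fold changes of −0.29 (adjusted p = 0.0934, edgeR) and −0.25 (adjusted p = 0.142, edgeR), each with cKO replicate 2 close under the lowest control. DESeq2 called both as lower (adjusted p = 0.0167 and 0.0462), and limma-voom with sample weights called Rps4x (adjusted p = 0.0381). Rpsa, which is also known as the laminin receptor, stood at −0.03, and the stalk proteins Rplp0 and Rplp2 at −0.13 and −0.22. At the upper end, Rps26 stood at 0.05 (adjusted p = 0.737, edgeR). Rps24 was at 271, 267 and 258 CPM in the controls and 271, 263 and 262 CPM in cKO, so the genotypes overlapped throughout.

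Levels between members can be compared only per length. By FPKM (reads scaled to the length of the gene model and to the library total, as deposited) the highest were Rplp0, at 471 ± 16.4 (SD, n = 3) in the controls and 433 ± 28.0 in cKO, then Rplp1, at 332 ± 14.2 and 278 ± 16.1. Rps3a1, Rpl4 and Rpl19 followed with means over all libraries of 301, 297 and 269 FPKM. Over all libraries Rplp1 had a mean of 305 FPKM, close to Rps3a1 and Rpl4. These means pool the genotypes, and differences between members were not tested. The lowest were Rpl39l and Rpl22l1, with means of 3.03 and 2.76 FPKM, and Rpl3l, the isoform of skeletal and heart muscle. Rpl3l had 0, 10 and 0 reads in the controls and 0, 0 and 5 reads in cKO, and was the only member that failed the filter.

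These FPKM ranks carry the gene model in them. The length behind the deposited FPKM matched the union of all annotated exons within 1% for all 79 members compared, and 64 of the 82 members list a transcript with a retained intron. The union had a median of 1776 bp over the members, against 775 bp for the principal mRNA. Scaled by mRNA length, Rplp0 remained highest, while Rplp1 and Rps3a1 took ranks 9 and 10.

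Of the paralogs, Rpl22l1, the counterpart of Rpl22, was at 7.34, 6.94 and 7.82 CPM in the controls and 4.80, 6.26 and 5.04 CPM in cKO. Its groups did not overlap, but the log2 fold change of −0.46 did not pass the test (adjusted p = 0.147, edgeR). Rpl22 itself had a log2 fold change of −0.16. Per kilobase of mRNA, Rpl22l1 reached 8.04%, 7.19% and 9.27% of the Rpl22 level in the controls and 6.07%, 7.04% and 6.70% in cKO. The ranges of this ratio did not overlap, although control replicate 2 and cKO replicate 2 were nearly level. With copies counted for both genes it was 8.93%, 7.75% and 10.2% in the controls and 6.67%, 8.57% and 7.52% in cKO, and the ranges overlapped.

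Rps27l, a p53 target and paralog of Rps27, was at 23.5, 25.3 and 22.6 CPM in the controls and 17.5, 23.1 and 16.2 CPM in cKO (log2 fold change −0.33, adjusted p = 0.201, edgeR). Here cKO replicate 2 reached into the control range. Per kilobase of mRNA and with Rps27 copies counted, Rps27l came to 27.1%, 31.4% and 28.0% of Rps27 in the controls and 24.6%, 31.0% and 23.7% in cKO. Rpl39l, a paralog of Rpl39 best known from the testis, reached 6.65% to 9.33% of Rpl39 in the controls and 7.05% to 7.88% in cKO on the same scale. Rpl7l1 reached 10.1% to 11.1% of Rpl7 in the controls and 11.0% to 11.4% in cKO, so these ratios were alike. The log2 fold changes of Rpl39l, Rpl39 and Rpl7l1 were −0.36, −0.21 and −0.20, and none of them passed the test.

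Since ribosomal protein mRNAs are short, they were set beside other genes by length. Among 9453 genes above 3 log2 CPM, divided into 10 equal groups by principal mRNA length, the median log2 fold change climbed from −0.13 in the shortest group to 0.05 in the longest. Of the 79 members in this range, 66 fell in the shortest group. That group, these 66 members included, had a median mRNA of 876 bp. Of its genes 4.86% were called lower, beside 7.41% of all 81 members tested. A negative log2 fold change was found for 77.7% of the group, and 29.9% were lower at an unadjusted p below 0.05 in edgeR's test. In 32.1% every cKO library lay below every control library. For the 81 members these shares were 93.8%, 48.1% and 43.2%. The members also had higher counts, with a median of 137 CPM, beside 23.6 CPM in that group and 12.2 CPM over all genes tested. How far this difference in counts enters the shares was not tested.

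Against the median of its own mRNA length group, the median member lay 0.04 lower, with 49 of 79 below. By the length implied by counts and FPKM, the median member lay 0.07 lower, with 55 of 79 below. Both comparisons used only genes above the minimum level given above. With all genes tested grouped by implied length, the median difference of the members from their own group was −0.12, with 71 of 81 below. The size of the difference therefore depended on that minimum level. The shortest group by mRNA also followed the members over the libraries, with deviations from the control mean of 0.04, −0.03 and −0.02 in the controls, beside −0.15, −0.07 and −0.15 in cKO. What sets the length trend was not tested.

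When the trend over implied length was removed from each library, the members' median log2 fold change became −0.07, beside 0.03 for all genes tested, and 3 members were called (0.701% of all genes were called lower). Among them were Rpl41 (adjusted p = 0.0423) and Rps19 (adjusted p = 0.00372), both by edgeR's test. Removing the trend over mRNA length also left 3 called, again beside 0.701% of all genes, and a median of −0.06. Rpl27a, Rplp1 and Rpl7 were no longer called in either fit.

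Other large complexes with short mRNAs had lower values too. The median log2 fold change was −0.19 for 78 mitochondrial ribosomal proteins, −0.24 for 36 nuclear-encoded subunits of respiratory complex I and −0.14 for 38 proteasome subunits. Each set had 2 genes called lower and 0 higher. Those called lower were 2.56%, 5.56% and 5.26% of the sets, beside 7.41% of the members and 1.06% of all genes tested. Every cKO library lay below every control library in 41.0%, 61.1% and 52.6% of the sets, beside 43.2% of the members. The reverse held for 1, 0 and 1 genes. Median levels of the sets were 16.4, 22.1 and 61.7 CPM, beside 137 CPM for the members. With the trend over implied length removed the medians of these sets were −0.12, −0.16 and −0.08, beside −0.07 for the members. In cKO replicate 2 the median deviation of log2 CPM from the control mean was −0.06 for the proteasome subunits, as for the members, but −0.17 for the mitochondrial ribosomal proteins and −0.29 for complex I. No test of the difference between these sets was made.

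**Figure D4:**
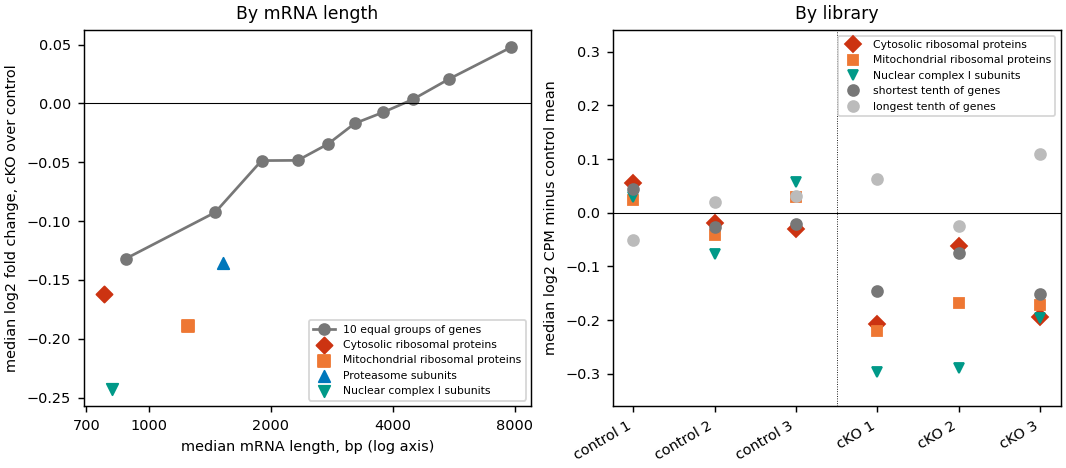
Left, median log2 fold change (cKO over control) against median mRNA length (log axis) for 10 equal groups of genes (grey line) and for 4 sets of complex subunits; right, median deviation of log2 CPM from the control mean in each library for 3 of the sets and for the shortest and longest of the 10 groups. The members lie near the shortest group at left, and at right they lie close to that group in all 6 libraries, including the small deviation of cKO replicate 2.

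The start of the mRNA was examined because most members had log2 fold changes of the same sign. The RefSeq promoter table (GRCm38.p6) had an entry for 62 of the 82 members, and for 3 of the 6 called ones. The TOP motif was taken as C at the annotated start base followed by 4 bases that are each C or T, on the strand of the gene and at that position only. It was present in 13 of the 62 members (21.0%), beside 3.01% of 27025 genes in the table, and in 0 of the 3 called members with an entry. Examples follow as 30 bases with the pyrimidine run from the start base in capitals:
Rps6: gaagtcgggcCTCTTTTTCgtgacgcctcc
Rpl28: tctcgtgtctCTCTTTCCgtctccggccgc
Rplp2: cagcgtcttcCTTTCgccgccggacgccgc
Rps21: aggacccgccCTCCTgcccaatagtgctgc

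These stretches lie at chr4:86857348-86857377 (Rps6, minus strand), chr7:4792955-4792984 (Rpl28, plus strand), chr7:141447641-141447670 (Rplp2, plus strand) and chr2:180257369-180257398 (Rps21, plus strand). The median log2 fold change was −0.11 for the 13 members with the motif at the annotated start and −0.17 for the other members with an entry. Those 13 ranged from −0.28 (Rps21) to 0.31 (Rps27), and all but Rps27 and Rpl38 (0.08) were negative. Members without it there say nothing of a tract at another start.

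Genes that work with the ribosomal proteins were read in the same fit, which called 1.06% of all genes tested lower and 1.36% higher. Of 17 translation factors and other mRNAs known for a TOP tract, 1 was lower in cKO and 0 were higher, with a median log2 fold change of −0.14. The called gene was Eef1b2, an exchange factor for elongation factor 1, at 165, 159 and 159 CPM in the controls and 133, 140 and 133 CPM in cKO (log2 fold change −0.25, adjusted p = 0.0365, edgeR). Btf3, Naca and Eif3e had log2 fold changes of −0.19, −0.18 and −0.16 and did not pass. Of the 17 genes, 15 had a negative log2 fold change, against 49.6% of all genes tested. At an unadjusted p below 0.05 in edgeR's test 9 were lower and 0 higher, where 8.79% of all genes tested were lower. DESeq2 called 2 of the 17 lower, where it called 2.64% of all genes lower.

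Of 71 ribosome assembly factors, 1 was lower (beside 1.06% of all genes tested) and 0 were higher, with a median of −0.07. The called gene was Eif6, which keeps the large subunit from joining too early, at 67.6, 64.1 and 63.9 CPM in the controls and 45.7, 57.1 and 46.5 CPM in cKO (log2 fold change −0.39, adjusted p = 0.0349, edgeR). Both Eef1b2 and Eif6 stayed called in only 1 of the 6 fits that left out a library. Among the 71 assembly factors, 52 had a negative log2 fold change, against 49.6% of all genes tested. At an unadjusted p below 0.05 in edgeR's test 7 were lower and 0 higher, where 8.79% of all genes tested were lower. DESeq2 called 2 of the 71 lower, where it called 2.64% of all genes lower.

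No gene passed among 15 of RNA polymerase I and its factors (median −0.03), 27 of mTORC1 and LARP1 (median −0.06) or 14 of the p53 pathway (median −0.03). At an unadjusted p below 0.05 in edgeR's test these lists had 1, 3 and 1 higher and 1, 5 and 2 lower. Over all genes tested 8.38% were higher and 8.79% lower at that threshold. DESeq2 called 0 of the polymerase I list, 1 lower of the mTORC1 list and 1 higher of the p53 list. The 5 ribosomal proteins and fusions outside the symbol rule also held 0 calls (2 lower and 0 higher at an unadjusted p below 0.05; 0 by DESeq2). Their median was −0.15, with Fau, made as a fusion with a ubiquitin-like protein, at −0.22.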

How the data were processed

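Polyadenylated RNA was sequenced in 3 control and 3 cKO libraries. Library preparation started from 5 µg of RNA (RIN above 7.0) and marked the strand, per the labels' protocols. The submitters' processing notes name cutadapt 1.9 and mm10; for the aligner, counting program, annotation and use of the strand: not given in the sources used here. Read counts per gene were deposited as whole numbers, per the file headers. The authors also deposited FPKM for each gene, per the file headers. FPKM served for levels and implied length only.

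Genotypes were compared with edgeR 4.0.16 (R 4.3.3; filterByExpr at its defaults: count 10, total 15; TMM, robust quasi-likelihood F test), with Benjamini-Hochberg adjustment over all genes tested. DESeq2 1.42.0 and limma 3.58.1 were alternatives. The script was tested on simulated data with 200 changed genes. It recovered 20.5% of them at a 1.25-fold change, 65% at 1.5-fold and 87.5% at 2-fold. False calls numbered 7, 13 and 14. Copies were found with blastn 2.17.0 against GENCODE M21 transcripts. Length trends were fitted by loess (span 0.3) in each library. The members, lists, tests and alternatives were chosen with earlier results of these data known; adding sequence copies and the uses of mRNA length were chosen after seeing the files.

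Members named are those called, the 6 lowest and 6 highest log2 fold changes above a mean of 5 CPM, the 5 highest and 3 lowest FPKM means, any that failed the filter, and a list of well-known members and paralogs; in other lists, up to 4 genes by smallest raw p. Rpl17, Rps27a, Rps16, Rpl28 and Rps21 were chosen after their values were seen. A called member and a gene of another list are not reported here.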

Additional observations from a re-analysis of the deposited data

How the results depend on the processing

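The number of called members was 12 with DESeq2, 11 with limma-voom, 3 with either length trend removed and 1 to 12 when a library was left out. The members' median log2 fold change stayed negative throughout, at −0.070 with the trend over implied length removed and −0.058 with that over mRNA length, and from −0.21 to −0.12 without a library. Calls in the 6 ribosome-related lists numbered 2, but 6 with DESeq2, 1 with the trend over implied length removed and 0 to 2 without a library. The difference in the members' share of counts, in percentage points, ranged from −0.16 to −0.09 without a library. The cause of these changes was not tested. With the replicate block, 7 members were called, the median was −0.16 and calls over all genes went from 229 higher and 178 lower to 316 and 357. Same-numbered libraries did not all deviate together (correlations −0.08, 0.05 and 0.26). With 3 libraries a genotype this cannot decide whether the shared numbers mark a pairing, and the labels do not say.

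Of the named members, 9 changed sign in some fit. Rps24 was at −0.0021 and turned to 0.0011 with DESeq2's size factors or test, 0.011 with limma-voom, 0.0086 with a minimum mean of 1 CPM, 0.063 with the mRNA length trend removed and 0.0028 with named pseudogenes added. Rpl5 turned to 0.00022 with limma-voom, 0.0026 with the 1 CPM minimum, and 0.017 and 0.035 with the implied and mRNA length trends removed. Rpsa turned to 0.018 and 0.032 in those 2 length fits, and Rpl11 to 0.0019 and Rps6 to 0.0025 in the mRNA one. Rps28 turned to −0.076 with limma-voom and −0.055 with copies; Rpl38 to −0.038 with named pseudogenes and −0.060 with copies; Rps27 to −0.21 and Rpl21 to −0.022 with copies. Leaving out a library gave ranges of −0.11 to 0.17 for Rps28, −0.087 to 0.36 for Rpl38, −0.033 to 0.61 for Rps27, −0.080 to 0.24 for Rpl21, −0.018 to 0.015 for Rps24, −0.034 to 0.036 for Rpl5 and −0.062 to 0.0041 for Rpsa. None of these passed the test in any fit. With 3 libraries a genotype, the SE of a member's log2 fold change had a median of 0.069, so small differences were hard to call.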
